A study of Mus musculus with 9 samples.

Results

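The genes described here are 9 genes of MHC class II antigen presentation, H2-Aa, H2-Ab1, H2-Eb1, Cd74, Ciita, H2-DMa, H2-DMb1, H2-Oa and Ctss. They were chosen by symbol from a count table of 34714 genes, all 9 were found, and all 9 were among the 18644 genes with enough counts to be tested. RNA was sequenced from mouse cortex in 3 groups of 3 samples. The first group had experimental autoimmune encephalomyelitis (EAE, in which the immune system attacks myelin, as in multiple sclerosis) and received the gold nanocluster Au18(L-NIBC)14, and is called treated EAE below. The second group had EAE without the compound, and the third was naive. The sources used here do not give the strain, sex, age, immunisation, dose, schedule or day on which tissue was taken. The labels number the brains within a group and do not say whether tissue was pooled, so that p-values measure only the spread between these samples.

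MHC class II molecules are pairs of an alpha and a beta chain that display peptides to CD4+ T cells. H2-Aa and H2-Ab1 encode the chains of I-A, and H2-Eb1 encodes the beta chain of I-E. Cd74 encodes the invariant chain, which fills the groove until proteases such as cathepsin S, the product of Ctss, cut it down. The DM molecule, of H2-DMa and H2-DMb1, then exchanges the last fragment for peptide, and the DO molecule, which contains the H2-Oa product, restrains DM. Ciita encodes the co-activator that switches class II promoters on, and interferon gamma is its best-known inducer. In healthy brain tissue, microglia carry little class II, whereas macrophages and dendritic cells of the brain's borders carry more.

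CIITA works through factors bound to an X box and a Y box that stand in this order before class II genes, so the stretch with both is shown for the members in which it was found. Promoter windows of 300 bases, from 250 before to 50 after the start, were taken from RefSeq (GRCm38.p6), where 6 members were matched (H2-Aa, H2-Eb1, H2-DMa, H2-DMb1, H2-Oa and Ctss). The letters CNNGNAAC (X core) and TGATTGG (Y core) were searched on both strands, and the letters were chosen with these windows in view. Capitals mark the cores, and each sequence reads 5′ to 3′ on the gene's strand.
H2-Aa: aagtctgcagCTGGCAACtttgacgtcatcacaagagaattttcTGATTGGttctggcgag
H2-Eb1: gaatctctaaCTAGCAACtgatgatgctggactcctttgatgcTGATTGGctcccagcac
H2-DMb1: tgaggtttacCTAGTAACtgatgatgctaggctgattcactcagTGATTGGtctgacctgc
H2-Oa: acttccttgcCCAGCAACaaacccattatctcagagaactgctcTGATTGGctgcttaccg

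These stretches lie at chr17:34287857-34287917 (minus strand) for H2-Aa, chr17:34305763-34305822 (plus) for H2-Eb1, chr17:34153084-34153144 (plus) for H2-DMb1 and chr17:34092290-34092350 (plus) for H2-Oa. The X core began 84, 94, 97 and 79 bases before the start in H2-Aa, H2-Eb1, H2-DMb1 and H2-Oa. Between the cores lay 26 bases in H2-Aa, H2-DMb1 and H2-Oa and 25 in H2-Eb1. Alone, the X core was in 39.1% and the Y core in 7.82% of 32851 mouse promoter windows, and both in this order on 1 strand with 20 to 30 bases between them in 25 windows (0.0761%). Neither of the 2 windows of H2-DMa held the pair. The Ctss window held neither core, and held the core of an interferon response element, GAAA on both sides of any 2 bases, which 3.44% of windows hold. These letters are capitals in the Ctss stretch, at chr3:95526745-95526794 (plus strand, with the match beginning 21 bases before the start).
Ctss: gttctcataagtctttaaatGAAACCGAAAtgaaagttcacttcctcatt

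In the same assembly, the class II members lie together on chromosome 17, in the order H2-Oa (34092379 to 34095234), H2-DMa (34119693 to 34139101), H2-DMb1 (34153191 to 34160229), H2-Ab1 (34263227 to 34269418), H2-Aa (34282744 to 34287823) and H2-Eb1 (34305867 to 34316674). Ciita lies on chromosome 16 (10480014 to 10531064), Ctss on chromosome 3 (95526786 to 95556405) and Cd74 on chromosome 18. Levels below are in CPM, counts scaled to the library's total count after its adjustment with TMM factors. Libraries held 26972179 to 45243553 counts, so that 3 counts correspond to 0.0671 to 0.11 CPM. The cortical tissue markers were present, among them the neuronal gene Snap25 at 1670 to 2402 CPM, and 0 of 8 passed the threshold in any comparison. The choroid plexus transcript Ttr stood apart in EAE replicate 1, at 828 CPM against 1.45 to 85.3 CPM in the other 8 libraries. EAE replicate 1 also had lower values of several members than EAE replicates 2 and 3, and the members' calls are given with and without it.

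In EAE, both I-A chains, the I-E beta chain and the invariant chain averaged 9.56 to 14.5 times their naive means, over 3 libraries of which 2 were far above the third. Their treated EAE means lay between those of EAE and naive cortex. Cathepsin S was at 3.06 times its naive mean, H2-DMb1 and H2-Oa had wide intervals, and Ciita and H2-DMa averaged 1.04 and 1.08 times their naive means. In the fit of all 9 libraries no member passed the threshold in any of the 3 comparisons.

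The alpha chain gene H2-Aa was at 3.44, 3.53 and 0.882 CPM in treated EAE, at 3.18, 19.8 and 19.1 CPM in EAE, and at 1.03, 0.55 and 1.55 CPM in naive cortex, in replicates 1 to 3. EAE replicates 2 and 3 were the highest of the 9 libraries, and EAE replicate 1 was below treated replicates 1 and 2. Every EAE library was above every naive library, and treated EAE overlapped with both. EAE averaged 14.05 ± 9.42 CPM and naive 1.04 ± 0.501 CPM (SD, n = 3 each), a ratio of means of 13.5.

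H2-Ab1, the beta chain that pairs with the H2-Aa product, was at 2.52, 3.75 and 1.07 CPM in treated EAE, at 2.69, 17.3 and 18.6 CPM in EAE, and at 1.05, 0.733 and 0.93 CPM in naive cortex. Treated EAE overlapped with EAE, and its lowest library, at 1.07 CPM, was just above the highest naive one, at 1.05 CPM. The means were 2.44 ± 1.34 CPM in treated EAE, 12.9 ± 8.83 CPM in EAE and 0.905 ± 0.16 CPM in naive cortex (SD, n = 3 each).

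H2-Eb1, the I-E beta chain, was at 3.20, 3.20 and 1.84 CPM in treated EAE, at 2.499, 18.7 and 15.4 CPM in EAE, and at 1.27, 1.14 and 1.41 CPM in naive cortex. All 6 libraries with EAE, treated or not, were above all 3 naive ones. EAE replicate 1 lay within the range of treated EAE. The means were 2.75 ± 0.787 CPM in treated EAE, 12.2 ± 8.55 CPM in EAE and 1.27 ± 0.138 CPM in naive cortex (SD, n = 3 each).

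Cd74, the invariant chain, was at 9.72, 11.9 and 2.76 CPM in treated EAE, at 8.40, 69.1 and 54.0 CPM in EAE, and at 2.46, 2.71 and 3.89 CPM in naive cortex. Treated replicate 3 was below naive replicate 3, and treated replicates 1 and 2 were above EAE replicate 1. The means were 8.11 ± 4.76 CPM in treated EAE, 43.8 ± 31.6 CPM in EAE and 3.02 ± 0.766 CPM in naive cortex (SD, n = 3 each).

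**Figure D1:**
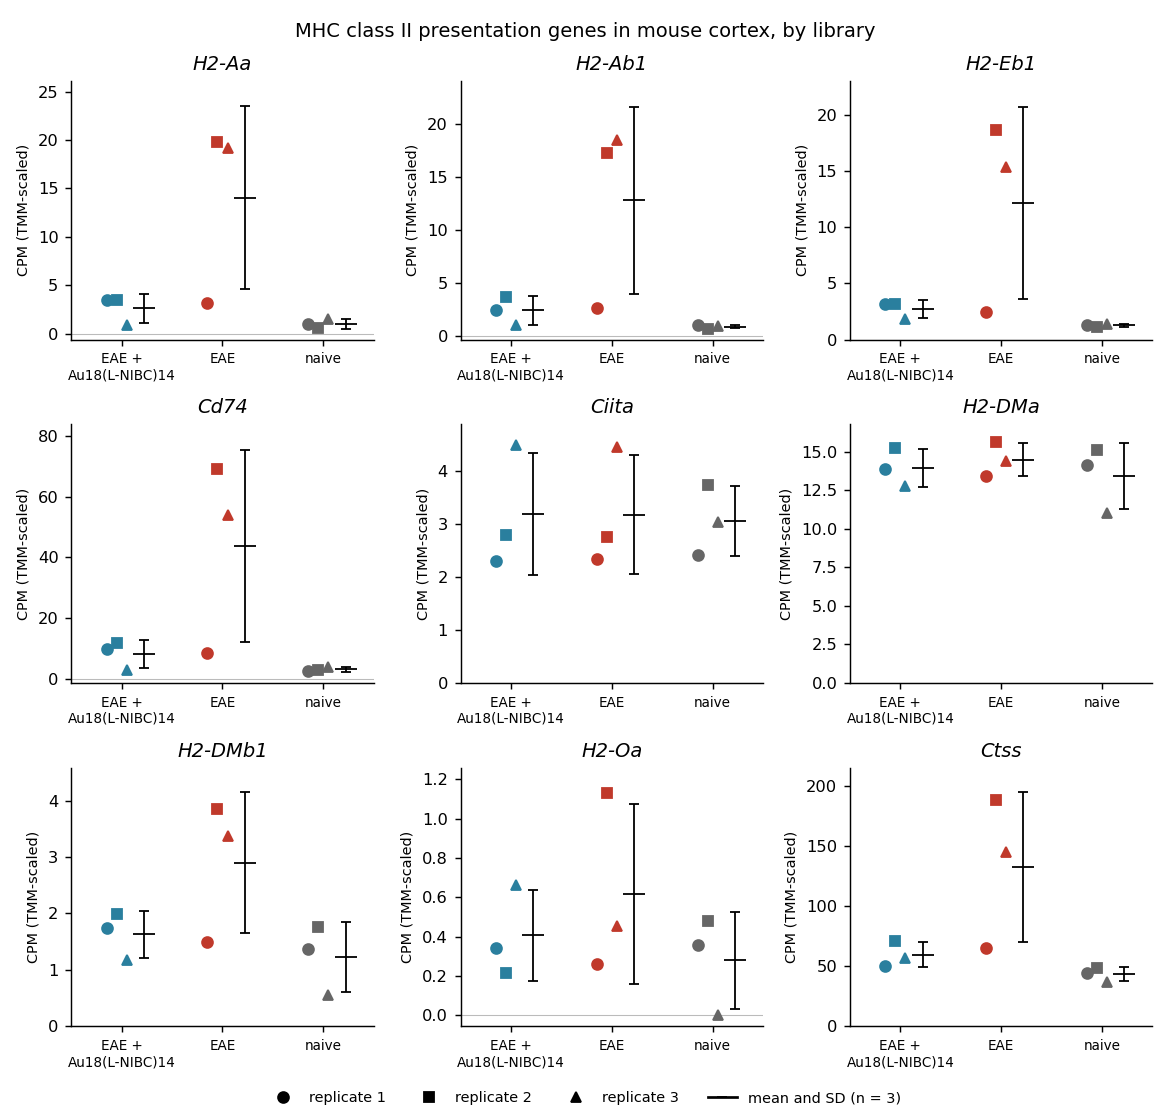
CPM of the 9 class II genes (y axes, from 0, each with its own scale) in treated EAE, EAE and naive cortex. Points are libraries, with a symbol for each replicate number, and bars are the mean and SD of 3. In H2-Aa, H2-Ab1, H2-Eb1, Cd74 and Ctss, EAE replicates 2 and 3 stand above all other libraries, and Ciita and H2-DMa show no such gap.

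The chain genes were also set against Cd74 within each library. The count of H2-Aa was 0.298 to 0.354 of that of Cd74 in treated EAE, 0.287 to 0.378 in EAE and 0.203 to 0.418 in naive cortex. For H2-Ab1 the ranges were 0.259 to 0.387 in treated EAE, 0.251 to 0.344 in EAE and 0.239 to 0.427 in naive cortex. The count of H2-Eb1 was 0.27 to 0.667 of that of Cd74 in treated EAE, 0.27 to 0.297 in EAE and 0.363 to 0.518 in naive cortex, so that the EAE range lay below the naive range. As a description over the 9 libraries, 3 to a group, log2 CPM of any pair of the 4 genes had Pearson's r of 0.969 to 0.988. Over the 7 libraries without EAE replicates 2 and 3, r was 0.9 to 0.95.

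Levels were also set per kilobase of merged exon, the union over all annotated transcripts of a gene. This ranks genes only roughly, because a long union lowers the value and the annotation behind the counts is not given. H2-Aa, with 3798 bases, came below H2-Eb1 (1944) and H2-Ab1 (2568), though its EAE mean of 14.05 CPM was above their 12.2 and 12.9. On this scale Ctss was highest in every group and Cd74 came second in EAE. In EAE, Ctss had 97.8 ± 46.1 and Cd74 26.1 ± 18.8 CPM per kilobase, ahead of H2-Eb1 (6.27 ± 4.4), H2-Ab1 (5.01 ± 3.44), H2-DMa (4.21 ± 0.312), H2-Aa (3.70 ± 2.48), H2-DMb1 (1.73 ± 0.741), H2-Oa (0.437 ± 0.326) and Ciita (0.333 ± 0.117; SD, n = 3 each). In this order, the ranges over 3 libraries overlapped between neighbours from Cd74 to H2-DMb1. In naive cortex H2-DMa came second, at 3.90 ± 0.617 CPM per kilobase, ahead of Cd74 at 1.80 ± 0.456, and Ctss was at 31.9 ± 4.31. H2-Eb1, H2-Ab1 and H2-Aa were at 0.656 ± 0.071, 0.352 ± 0.0623 and 0.275 ± 0.132 CPM per kilobase in naive cortex (SD, n = 3 each).

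The members of peptide loading differed among themselves. H2-DMa, the DM alpha chain, was at 13.9, 15.3 and 12.8 CPM in treated EAE, at 13.5, 15.6 and 14.4 CPM in EAE, and at 14.2, 15.1 and 11.1 CPM in naive cortex. The 3 groups overlapped, and the log2 fold change of EAE against naive was 0.11 with a 95% interval of -0.185 to 0.401. Of its exonic bases, 360 of 3448 are shared with Brd2 on the opposite strand, so that some of these reads may be those of Brd2, whose part was not tested.

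H2-DMb1, the other DM chain, was at 1.73, 1.99 and 1.18 CPM in treated EAE, at 1.49, 3.85 and 3.37 CPM in EAE, and at 1.36, 1.76 and 0.551 CPM in naive cortex. EAE replicates 2 and 3 were the highest, and EAE replicate 1 lay among the naive libraries. The log2 fold change of EAE against naive was 1.24 (SE 0.455, edgeR adjusted p = 0.219). Its near-identical neighbour H2-DMb2 was at 0.591 ± 0.17 CPM in treated EAE, 1.04 ± 0.17 CPM in EAE and 0.564 ± 0.208 CPM in naive cortex (SD, n = 3 each), and the sources used here do not say how reads were split between the pair.

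H2-Oa, of the DO molecule, had the fewest counts of the members and was at 0.342, 0.213 and 0.661 CPM in treated EAE, 0.26, 1.13 and 0.452 CPM in EAE and 0.358, 0.477 and 0 CPM in naive cortex, or 0 to 35 counts. A count of 0 in naive replicate 3 allows up to 0.103 CPM. For EAE against naive, the 95% interval on the log2 scale ran from -0.82 to 3.06 (SE 0.862). Its partner H2-Ob was at 0.572 ± 0.314 CPM in treated EAE, 1.01 ± 0.319 CPM in EAE and 0.476 ± 0.167 CPM in naive cortex (SD, n = 3 each). H2-Oa shares 321 of 1407 exonic bases with BC051537 on the opposite strand.

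Ciita was at 2.29, 2.80 and 4.48 CPM in treated EAE, at 2.34, 2.75 and 4.45 CPM in EAE, and at 2.41, 3.74 and 3.03 CPM in naive cortex. The groups overlapped throughout, with means of 3.19 ± 1.15, 3.18 ± 1.12 and 3.06 ± 0.664 CPM in treated EAE, EAE and naive cortex (SD, n = 3 each). For EAE against naive the log2 fold change was 0.06, with a 95% interval of -0.662 to 0.777, which does not reach 1. For treated EAE against EAE it was -0.0012, with an interval of -0.714 to 0.711. Ciita shares 329 of 9535 exonic bases with Dexi on the opposite strand, and reads from the ends of the 2 genes cannot be told apart without a stated strand setting.

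Ctss, the protease of the invariant chain, was at 50.4, 71.2 and 57.2 CPM in treated EAE, at 65.1, 188.5 and 145 CPM in EAE, and at 44.3, 48.7 and 37.1 CPM in naive cortex. All 6 libraries with EAE, treated or not, were above the naive ones, and EAE replicate 1 lay between treated replicates 3 and 2. The means were 59.6 ± 10.6 CPM in treated EAE, 132.9 ± 62.6 CPM in EAE and 43.4 ± 5.85 CPM in naive cortex (SD, n = 3 each). In bulk tissue, more cells that express a gene and more RNA per cell cannot be told apart, here and for the other members.

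EAE against naive asked what the disease changed. The log2 fold changes were 3.74 for H2-Aa (SE 0.801, edgeR adjusted p = 0.0713), 3.81 for H2-Ab1 (SE 0.753, edgeR adjusted p = 0.06), 3.25 for H2-Eb1 (SE 0.654, edgeR adjusted p = 0.06) and 3.87 for Cd74 (SE 0.83, edgeR adjusted p = 0.0734). That of Ctss was 1.61 (SE 0.345, edgeR adjusted p = 0.0713). With edgeR's quasi-likelihood test, 0 of 9 members passed at an adjusted p of 0.05, where 0.987% of all tested genes did, and 6 of 9 had an unadjusted p under 0.05, where 16.4% of all genes did. None passed as higher, where 0.735% did. In 5 of 9 members all EAE libraries were above all naive ones, against 12.2% of all genes. The log2 fold change was above 1 in 7 of 9 members, against 3.16% of all genes, and above 0 in 9 of 9, against 49% of all genes. Its median was 1.62 over the members and -0.00514 over all genes.

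Which side of the threshold these 5 genes fell on depended on EAE replicate 1. Without it, 5 of 9 members were called higher, as were 1.24% of all tested genes in that fit. Log2 fold changes were 4.22 for H2-Aa, 4.29 for H2-Ab1, 3.74 for H2-Eb1, 4.36 for Cd74 and 1.95 for Ctss. The edgeR adjusted p was 0.0161, 0.00638, 0.000873, 0.0172 and 0.00453 in this order. This replicate was singled out partly for its low values of these genes, so leaving it out favours such calls. Without EAE replicate 2 or 3, no member was called. The edgeR adjusted p of the chains and Cd74 was then 0.178 to 0.216 and 0.121 to 0.144. DESeq2 on all 9 libraries called the same 5 genes higher, with adjusted p of 0.000468, 6.25e-05, 0.000182, 2e-04 and 0.00163, in a fit that called 3.8% of all genes higher. Without the robust prior, edgeR called 2 of 9 higher, H2-Ab1 and H2-Eb1, and 0.788% of all genes.

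**Figure D2:**
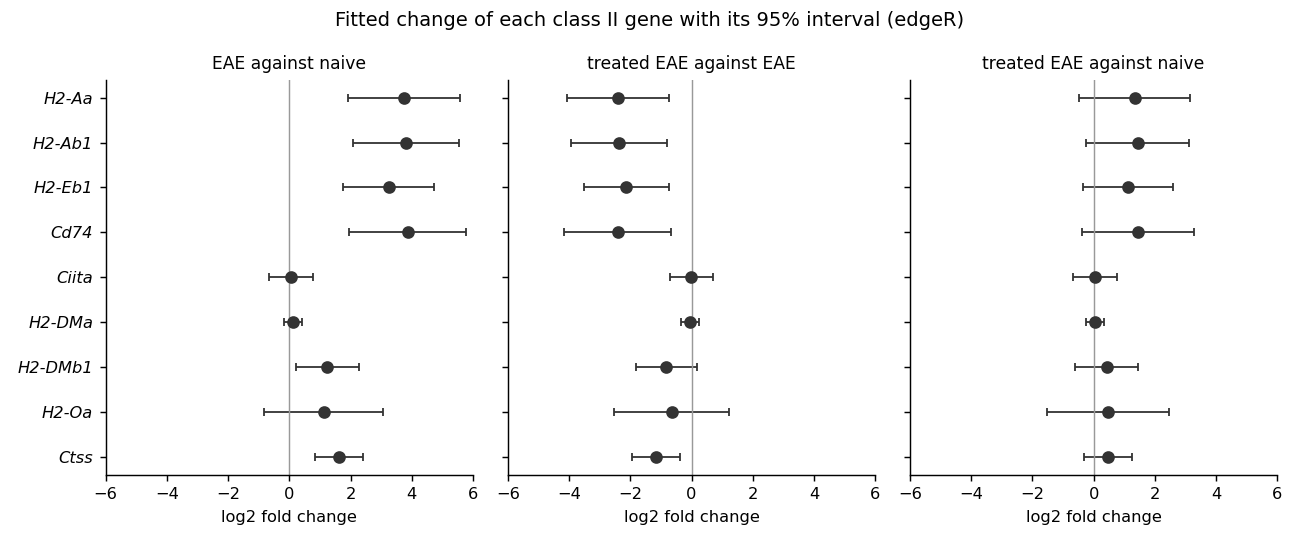
Fitted log2 fold change (x axis) of each class II gene with its 95% interval, from the fit of all 9 libraries, for EAE against naive, treated EAE against EAE and treated EAE against naive. H2-Aa, H2-Ab1, H2-Eb1 and Cd74 lie at 3.25 to 3.87, at -2.42 to -2.14 and at 1.12 to 1.45 in the 3 panels, and Ciita and H2-DMa lie near 0 in all 3.

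Treated EAE against EAE asked what the compound changed in diseased cortex. The log2 fold changes were -2.40 for H2-Aa (SE 0.73, edgeR adjusted p = 0.188), -2.37 for H2-Ab1 (SE 0.682, edgeR adjusted p = 0.172), -2.14 for H2-Eb1 (SE 0.608, edgeR adjusted p = 0.168), -2.42 for Cd74 (SE 0.758, edgeR adjusted p = 0.203) and -1.16 for Ctss (SE 0.34, edgeR adjusted p = 0.18). H2-DMb1 was at -0.82 and H2-Oa at -0.65. With edgeR, 0 of 9 members passed, where 0.22% of all tested genes did, and 0 of 9 passed as lower, where 0.129% did. An unadjusted p under 0.05 was reached by 5 of 9 members, where 15.1% of all genes did. The log2 fold change was below -1 in 5 of 9 members, against 2.26% of all genes, and below 0 in 9 of 9, against 49.4%. The groups overlapped in all 9 members, whereas 9.28% of all genes had every treated library below every EAE library. In H2-Aa, H2-Ab1, H2-Eb1, Cd74, H2-DMb1 and Ctss, EAE replicates 2 and 3 were above every treated library and EAE replicate 1 was not.

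The median over the members was -1.16, and 0.00289 over all genes. Without EAE replicate 1, 3 of 9 members were called lower, as were 0.18% of all tested genes in that fit. Here too, leaving out a replicate singled out partly for its low member values favours such calls. No other fit that left out 1 library called a member. The 3 members were H2-Ab1, at -2.86 (edgeR adjusted p = 0.0383), H2-Eb1, at -2.63 (edgeR adjusted p = 0.00802), and Ctss, at -1.49 (edgeR adjusted p = 0.0192). H2-Aa was then at -2.88 (edgeR adjusted p = 0.082) and Cd74 at -2.92 (edgeR adjusted p = 0.0861). DESeq2 on all libraries called 2 of 9 lower, H2-Ab1 (adjusted p = 0.0404) and H2-Eb1 (adjusted p = 0.0413), in a fit that called 2.08% of all genes lower. This comparison and the one before it use the same EAE libraries, so that a library that is low or high in EAE moves both.

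Treated EAE against naive asked whether treated cortex still differed from healthy cortex. The log2 fold changes were 1.35 for H2-Aa (95% interval -0.461 to 3.15), 1.44 for H2-Ab1 (-0.26 to 3.13), 1.12 for H2-Eb1 (-0.356 to 2.59), 1.45 for Cd74 (-0.391 to 3.29) and 0.46 for Ctss (-0.32 to 1.24). No member passed with edgeR (0 of 9, where 0% of all genes were called) or with DESeq2 (0 of 9, where 0.0109% were called), and 0 of 9 had an unadjusted p under 0.05, where 1.71% of all genes did. In H2-Ab1, H2-Eb1 and Ctss, 3 of 9 members, all treated libraries were nevertheless above all naive ones, against 3.51% of all genes. The log2 fold change was above 1 in 4 of 9, against 0.633%, and above 0 in 9 of 9, against 53.6%. The intervals of the 3 chain genes and Cd74 include 0 and reach 2.59 or more, so that the comparison does not show that treated cortex was at the naive level.

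Seen by library, the folds over the naive mean were 3.30, 3.39 and 0.845 for H2-Aa in treated replicates 1 to 3, and 3.05, 19.0 and 18.4 in EAE replicates 1 to 3. For Cd74 they were 3.22, 3.92 and 0.912 in treated EAE, and 2.78, 22.9 and 17.9 in EAE. Treated replicate 3 was thus near the naive mean in both genes. EAE replicate 1 was nearer to treated replicates 1 and 2 than to its own group.

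**Figure D3:**
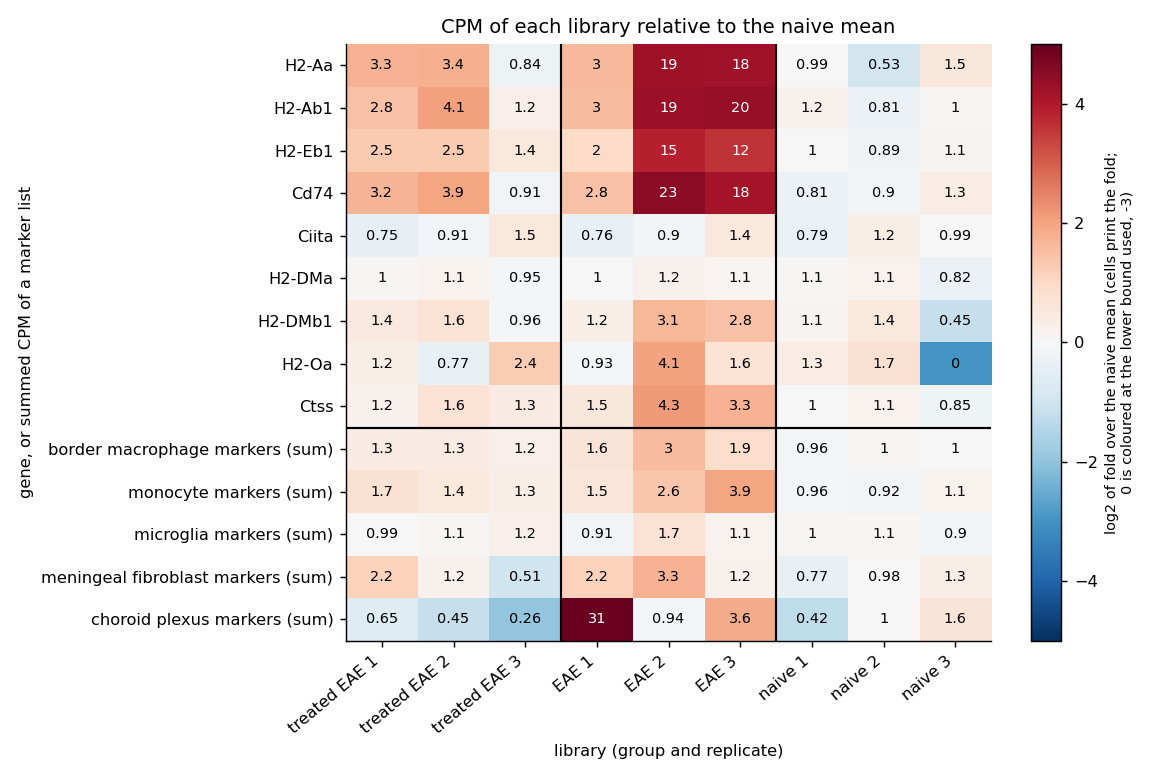
CPM in each library (columns, treated EAE, EAE and naive) divided by the naive mean, for the 9 class II genes and, under the line, for the summed CPM of 5 marker lists. Each cell prints the fold and is coloured by its log2. The class II chains and Cd74 reach 12.1 to 22.9 in EAE replicates 2 and 3, where the border macrophage and monocyte sums reach 1.85 to 3.9, and the choroid plexus sum peaks in EAE replicate 1.

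Markers of cells that can carry class II varied with the same libraries, and their part in the result was not tested. Summed CPM of 8 border macrophage markers was 32.5, 32.4 and 29.4 in treated EAE, 38.1, 73.5 and 45.3 in EAE, and 23.4, 25.2 and 24.7 in naive cortex. Stab1 alone made up 57.7% to 86.7% of this sum. Without it, a choice made after the values were seen, the other 7 summed to 8.6, 10.5 and 3.89 CPM in treated EAE, 11.1, 31.1 and 12 CPM in EAE, and 6.46, 6.2 and 7.89 CPM in naive cortex. On that sum treated replicate 3 was below every naive library, and every EAE library was above every other library. Of these markers Stab1, a scavenger receptor, rose in EAE against naive (log2 fold change 0.96, SE 0.149, edgeR adjusted p = 0.028), 1 of 8, where 0.735% of all genes rose. F13a1, which encodes a coagulation factor subunit, was at 2.30 (edgeR adjusted p = 0.0775), and the mannose receptor gene Mrc1 at 1.35 (edgeR adjusted p = 0.29). None of the 8 passed in treated EAE against EAE with edgeR.

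Summed CPM of 6 monocyte markers was 96.8, 82.4 and 72.6 in treated EAE, 86.9, 149.3 and 225.7 in EAE, and 55.5, 53.1 and 64.9 in naive cortex. The EAE range overlapped with that of treated EAE and not with that of naive cortex. Fn1, for fibronectin, rose in EAE against naive (log2 fold change 0.96, SE 0.17, edgeR adjusted p = 0.0398), as did S100a4, a calcium-binding protein gene (1.92, SE 0.278, edgeR adjusted p = 0.0221), 2 of 6, where 0.735% of all genes rose. Lysozyme gene Lyz2 was at 13.5, 10.4 and 4.997 CPM in treated EAE, 9.18, 37.8 and 95.5 CPM in EAE and 4.92, 4.58 and 5.34 CPM in naive cortex (EAE against naive, edgeR adjusted p = 0.0928). The chemokine receptor gene Ccr2 was at 0.631 ± 0.324, 2.11 ± 1.5 and 0.262 ± 0.0981 CPM in treated EAE, EAE and naive cortex (SD, n = 3 each).

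The sum of 8 microglia markers was 346 to 414 CPM in treated EAE, 317 to 582 CPM in EAE and 313 to 374 CPM in naive cortex, with 0 of 8 past the threshold in any comparison. The median log2 fold change of EAE against naive was 0.12. Csf1r, the receptor on which microglia depend, was at 106.3 ± 6.28 CPM in treated EAE, 145.4 ± 53.5 CPM in EAE and 94.1 ± 11.5 CPM in naive cortex (SD, n = 3 each). Cd74 amounted to 2.81%, 3.24% and 0.665% of the microglia sum in treated EAE, 2.65%, 11.9% and 13.8% in EAE, and 0.686%, 0.726% and 1.25% in naive cortex. Against the border macrophage sum it was 29.9%, 36.6% and 9.39% in treated EAE, 22.1%, 94% and 119% in EAE, and 10.5%, 10.8% and 15.8% in naive cortex. Against the monocyte sum it was 10%, 14.4% and 3.79% in treated EAE, and 9.67%, 46.3% and 23.9% in EAE. In naive cortex it was 4.43%, 5.11% and 6%. In EAE replicates 2 and 3 Cd74 thus differed from naive cortex by more than any of these sums did. Fn1 dominated the monocyte sum in naive cortex, at 46.5 to 57.9 CPM. Ratios of EAE to naive means were 1.94 for Fn1, 2.89 for Ly6c2, 3.77 for S100a4 and 4.79 for Plac8. They were 8.07 for Ccr2 and 9.6 for Lyz2, against 14.5 for Cd74. Whether cell numbers changed was not tested.

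B cell transcripts and the T cell gene Cd3e were near the limit of detection. The B cell gene Ms4a1 was at no more than 0.147 CPM in any library, and the 6 B cell markers found summed to 0.404 to 0.855 CPM in treated EAE, 0.26 to 1.36 CPM in EAE and 0.715 to 1.17 CPM in naive cortex. Cd3e was at 0, 0.119 and 0 CPM in treated EAE, 0.13, 0.259 and 0.208 CPM in EAE and 0.0447, 0.0733 and 0 CPM in naive cortex, so that every EAE library was above every other one, at 8 counts or fewer. Cd8a, the co-receptor gene of cytotoxic T cells, was at 0.22, 0.0237 and 0.11 CPM in treated EAE, 0.13, 0.485 and 0.417 CPM in EAE and 0.112, 0 and 0 CPM in naive cortex, with EAE above naive and overlapping with treated EAE. Both had too few counts to be tested, and Cd8a was named after its values were seen. In the other T cell markers found, Cd3d, Cd3g, Cd5, Lck and Cd4, EAE overlapped with naive cortex. Their ratios of EAE to naive means were 0.901, 2.17, 1.68, 1.27 and 0.942 in this order. The sum of 7 T cell markers was 4.04 to 11.6 CPM in treated EAE, 3.13 to 17.1 CPM in EAE and 2.48 to 21.0 CPM in naive cortex. It held Cd4, the co-receptor gene of helper T cells, at between 0.591 and 19.0 CPM, and 0 of 2 tested T cell markers and 0 of 1 tested B cell marker passed in any comparison. The sum of 8 dendritic cell markers was 29.2 to 31.1 CPM in treated EAE, 26.0 to 34.0 CPM in EAE and 27.4 to 34.9 CPM in naive cortex. Of these, Flt3 and Zbtb46 had the highest levels, with naive means of 12.5 and 16.9 CPM. Flt3 and Batf3 had log2 fold changes of 0.13 and 0.61 in EAE against naive (edgeR adjusted p = 0.852 and 0.367). Among the same markers Xcr1 was at 0.0733 CPM or less in every library. Itgax, which encodes CD11c and is also known from activated microglia, was at 0.415, 0.379 and 0.441 CPM in treated EAE, 0.357, 3.56 and 2.60 CPM in EAE and 0.157, 0.0733 and 0.276 CPM in naive cortex (EAE against naive, edgeR adjusted p = 0.0635). Zbtb46, which marks dendritic cells and is also expressed in endothelium, fell in EAE against naive (log2 fold change -0.49, SE 0.0928, edgeR adjusted p = 0.0432), 1 of 4 tested dendritic cell markers. Over all genes, 0.987% were called in either direction.

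Tissue from the brain's borders also varied. The meningeal fibroblast sum over 6 genes was 156, 81.4 and 35.4 CPM in treated EAE, 155, 231 and 81.4 CPM in EAE, and 53.6, 68.4 and 87.3 CPM in naive cortex. In treated EAE and in naive cortex, the library with the lowest sum was also lowest in Cd74, and in EAE it was not. The choroid plexus sum was 898 CPM in EAE replicate 1, where class II was lowest of the EAE libraries, and 27.4 and 104 CPM in EAE replicates 2 and 3. None of the 6 fibroblast and 6 choroid plexus markers passed with edgeR in any comparison. Their part in the class II result was not tested.

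Of the other genes of the pathway, 5 lists were taken. Among 13 genes of proteases and trafficking, 1 rose in EAE against naive (0.735% of all genes did) and none fell, and the list's median was 0.38. It was Ctsh, for the aminopeptidase cathepsin H, at 9.65 ± 0.781 CPM in treated EAE, 20.1 ± 7.0 CPM in EAE and 8.39 ± 0.68 CPM in naive cortex (SD, n = 3 each). Its log2 fold change for EAE against naive was 1.25 (SE 0.224, edgeR adjusted p = 0.0385). For treated EAE against EAE, Ctsh was at -1.06 (edgeR adjusted p = 0.0953), with every treated library below every EAE library, as in 9.28% of all genes. Ctsd, for cathepsin D, was at 0.50 (edgeR adjusted p = 0.0646) in EAE against naive. Ctsb, for cathepsin B, was at 0.14 and Cst3, for the protease inhibitor cystatin C, at 0.15, with edgeR adjusted p of 0.512 and 0.596.

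Of the 5 list genes called in EAE against naive (Stab1, Fn1, S100a4, Zbtb46 and Ctsh), none was called in all 9 fits that left out 1 library. Stab1 and S100a4 were called in 4 of the 9, Fn1 in 3, and Zbtb46 and Ctsh in 1 each, and all kept their direction. Without EAE replicate 1, the edgeR adjusted p was 0.00589 for Ctsh, 0.00798 for Stab1, 0.0079 for Fn1, 0.0126 for S100a4 and 0.0573 for Zbtb46. With a replicate block, Fn1 and Zbtb46 were no longer called (edgeR adjusted p = 0.0525 and 0.0505), and in a fit of EAE and naive alone, Ctsh, Fn1 and Zbtb46 were not (edgeR adjusted p = 0.0741, 0.0711 and 0.0631).

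The factors that assemble on class II promoters had a median of 0.19 in EAE against naive and -0.144 in treated EAE against EAE, with 0 of 12 past the threshold in either. Creb1 and Nfyb, for factors that bind the X and Y region, were at -0.09 and -0.05 in EAE against naive. Nfyc was at 31.4 ± 1.77 CPM in treated EAE, 38.9 ± 1.31 CPM in EAE and 33.2 ± 1.97 CPM in naive cortex (SD, n = 3 each), and EAE did not overlap with either other group (edgeR adjusted p = 0.166 for EAE against naive and 0.125 for treated EAE against EAE). Over all genes, 12.2% had every EAE library above every naive one, and 9.28% had every treated library below every EAE library. On the interferon gamma side, 0 of 7 tested genes passed, and Ifng itself was at 0.0649 CPM or less in every library, with at most 2 counts. The receptor chain gene Ifngr2 and the kinase gene Jak1 were at -0.01 and -0.17. Jak2 was at 0.16 in EAE against naive and at -0.29 in treated EAE against EAE (edgeR adjusted p = 0.29 and 0.118).

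Co-stimulators and receptors of class II had a median of 0.63 in EAE against naive and -0.596 in treated EAE against EAE, with 0 of 9 past the threshold in either. Icosl, the ligand of ICOS, was at 5.62 ± 1.51 CPM in treated EAE, 8.96 ± 0.841 CPM in EAE and 5.11 ± 2.25 CPM in naive cortex (SD, n = 3 each). Lag3, which encodes a receptor that binds class II, was at 6.04 ± 1.31, 10.2 ± 5.76 and 5.22 ± 1.31 CPM in treated EAE, EAE and naive cortex (SD, n = 3 each). The remaining class II and DM or DO genes, H2-DMb2 and H2-Ob, had log2 fold changes of 0.85 and 1.07 in EAE against naive, and 0 of 2 passed. H2-Eb2 had at most 4 counts in a library and was not tested. Neither H2-Ea nor H2-Ea-ps was found by symbol in the count table, so no level of an I-E alpha chain is given.

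**Figure D4:**
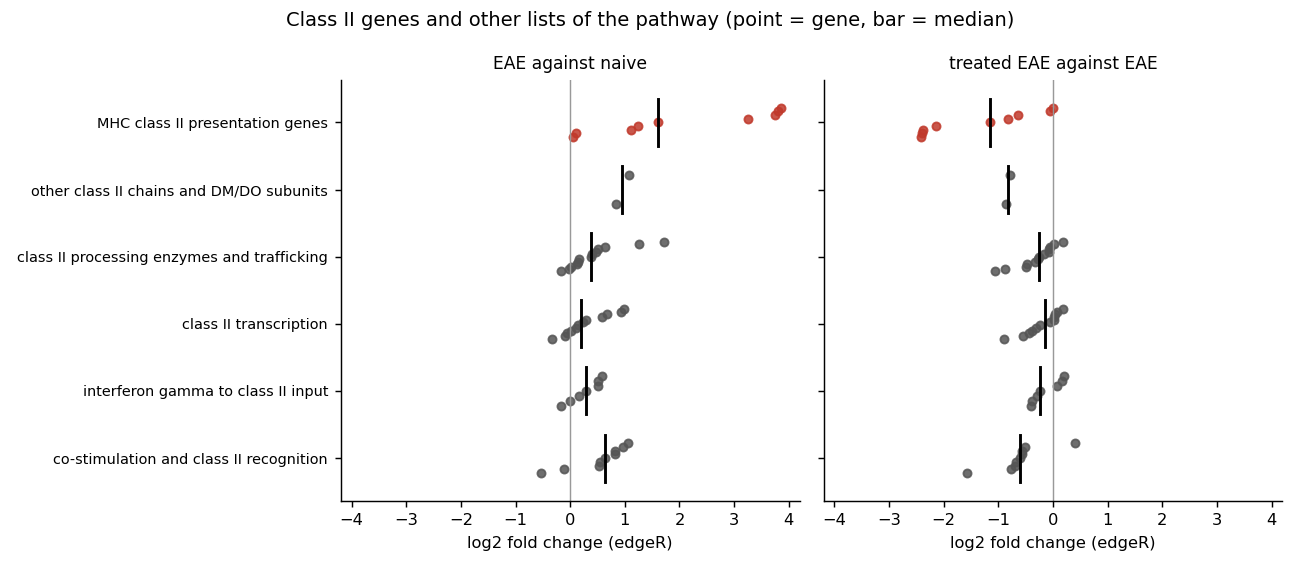
Log2 fold change (x axis) of each tested gene of the 9 class II genes and of 5 other lists of the pathway (rows), for EAE against naive and treated EAE against EAE. Points are genes and bars are medians. The class II genes spread from 0.06 to 3.87 and from -2.42 to -0.0012 in the 2 panels, and the medians of the other lists lie between 0.19 and 0.957 and between -0.821 and -0.144.

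Outside the members, the genes whose log2 CPM over the 9 libraries was most like the mean of H2-Aa, H2-Ab1, H2-Eb1 and Cd74, of 18635 genes ranked by Pearson's r, were Cyba (0.98), F13a1 (0.97), F830016B08Rik (0.97), Serpina3n (0.97) and Grn (0.97). Cyba encodes a subunit of the phagocyte NADPH oxidase, Serpina3n a protease inhibitor and Grn progranulin. Cyba was at 4.42, 6.07 and 4.08 CPM in treated EAE, at 4.74, 10.9 and 11.4 CPM in EAE and at 3.53, 2.97 and 3.48 CPM in naive cortex. EAE replicate 1 was again between treated replicates 1 and 2. Without EAE replicates 2 and 3, the 2 libraries farthest from the median, r was 0.9, 0.903, 0.87, 0.868 and 0.821 over the other 7. Among the members themselves, r with that mean was 0.93 for Ctss, 0.80 for H2-DMb1, 0.44 for H2-DMa, 0.39 for H2-Oa and 0.036 for Ciita. Over the same 7 libraries it was 0.629 for Ctss, 0.389 for H2-DMb1, 0.201 for H2-DMa, -0.121 for H2-Oa and -0.602 for Ciita, so that these values rest on EAE replicates 2 and 3.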

How the data were processed

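Oligo(dT)-selected RNA of cortex was sequenced on an Illumina HiSeq, per the labels' protocols. Per the series' design text, trimming used fastp, alignment Hisat2 and quantification bowtie2. FastQC 0.11.8 and build mm10 are named in the submitters' processing notes. The sources used here do not give the annotation, the strand setting or the counting options. The authors deposited raw counts per gene symbol. Columns were matched to samples by title, and 9 further columns that match no sample were not used. The value 2 occurred 3.80 to 4.43 times as often as the value 1 in a library, so that both mates of a pair may have been counted and intervals from counts would then be too narrow. Within groups, no library was a copy of another (chi-square over its degrees of freedom 16 to 53.4). Pairs of libraries from different groups were not compared in this way.

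Counts were fitted with edgeR 4.0.16 under R 4.3.3 (filterByExpr, TMM factors, robust glmQLFit and glmQLFTest) over all 9 libraries, with group as the only factor and 6 residual degrees of freedom. Benjamini-Hochberg adjustment ran over 18644 genes, with a threshold of 0.05. The alternatives were DESeq2 1.42.0, 2 other scalings, no filter, no robust prior, fits of the 2 groups alone, a replicate block and leaving out each library. On simulated counts of EAE against naive over 18644 genes, 76% of genes made 1 higher, 94% of genes made 2 higher, 64% of genes made 1 lower and 90% of genes made 2 lower on the log2 scale were called, with 10 false calls. The changed genes were drawn at random from those with a mean above 1 CPM, each with its own dispersion. These shares therefore do not give the power for H2-Aa, H2-Ab1, H2-Eb1 and Cd74, whose SE was 0.654 to 0.83 in EAE against naive.

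Replicate numbers were checked for pairing by correlating the deviations of same-numbered libraries from their group means. The correlation was 0.175, 0.245 and 0.238 for treated EAE and EAE. It was 0.0545 to 0.36 for EAE and naive and -0.246 to 0.199 for treated EAE and naive. No label ties replicate numbers across groups, so that a pairing by number is neither shown nor excluded by these values. The main fit used no pairing, and the replicate block was run as an alternative. The 9 genes, 5 pathway lists and 9 marker lists were chosen with earlier results of these data known. From each list the text names genes past the threshold, genes among the 3 others of highest mean CPM, and defining markers at or near 0. Ifng was named after its values were seen. Gene positions come from RefSeq for GRCm38.p6, the assembly of mm10, and exon lengths and overlaps from GENCODE M21.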

Additional observations from a re-analysis of the deposited data

How the results depend on the processing

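The log2 fold changes of H2-Aa, H2-Ab1, H2-Eb1, Cd74, Ctss and H2-DMb1 kept their direction in all 3 comparisons under all 16 alternatives. Those of H2-Oa, H2-DMa and Ciita turned in some of the fits that left out 1 library, where they ranged as follows. For EAE against naive Ciita ranged from -0.26 to 0.24 and H2-DMa from -0.0087 to 0.20. For treated EAE against EAE the ranges were -0.32 to 0.31 for Ciita, -0.12 to 0.0092 for H2-DMa and -1.14 to 0.14 for H2-Oa. For treated EAE against naive they were -0.26 to 0.24 for Ciita, -0.067 to 0.14 for H2-DMa and -0.072 to 0.97 for H2-Oa. With the replicate block, the value of Ciita in treated EAE against EAE was 0.0011, which also turned its sign.

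Members called in EAE against naive were 5 with DESeq2 (where 3.8% of all genes were called higher) and 2 without the robust prior (H2-Ab1 and H2-Eb1, where 0.788% were). When 1 library was left out, 0 to 5 were called. In treated EAE against EAE the members called were 2 with DESeq2 (where 2.08% of all genes were called lower) and 0 to 3 when 1 library was left out. In treated EAE against naive they were 0 throughout. Every non-zero count of members among the fits that left out 1 library came from the fit without EAE replicate 1. Over all genes, edgeR called 184 in EAE against naive, 41 in treated EAE against EAE and 0 in treated EAE against naive. DESeq2 called 1051, 690 and 3. Fits of only the 2 groups compared called 3 genes in treated EAE against EAE. Leaving out 1 library gave 2 to 261 genes in EAE against naive, 4 to 38 in treated EAE against EAE and 0 in treated EAE against naive. The fewest, 2, came without naive replicate 1. The replicate block called 238, 46 and 0 genes and 0 members in each comparison, so that it changed no call of a member, and it ended those of the list genes Fn1 and Zbtb46 in EAE against naive. The cause of these shifts was not tested.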
